A study of Saccharomyces cerevisiae with 45 samples.

Results

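The large (60S) subunit of the yeast ribosome is built from proteins most of which are encoded by a pair of genes, named A and B, at separate loci. The 52 genes described here form 26 such pairs (numbered between RPL1 and RPL34), chosen by name from the 6723 genes of the count table. The question was which paralog supplied the transcripts of each pair in dormant spores, during germination, and when rapamycin was present.

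Spores of wild type Saccharomyces cerevisiae of the SK1 background were purified and placed in rich nutrient medium (YPD) with 2000 nM rapamycin, an inhibitor of the kinase complex TORC1, or with the same volume of its solvent DMSO. Poly-A RNA was sequenced from rapamycin and DMSO cultures early (0, 10 and 30 min), at 60 and 120 min, and late (240 and 360 min), and from the purified spores, with 3 libraries (A, B and C) in each of the 15 groups and between 7736397 and 14522407 counted reads per library. Nothing in the labels says that the 3 libraries of a group came from separate cultures, so the p-values measure the spread between these libraries, which may be technical. Rapamycin was compared with DMSO at each time, and DMSO at each time with spores, and all comparisons with spores share the same spore libraries.

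Ribosomal protein genes are among the most heavily transcribed genes of a growing yeast cell. Nutrients raise their transcription through TORC1 and protein kinase A, which act on factors such as Sfp1 and Ifh1 at promoters that many of these genes share, often with a site for Rap1. A dormant spore has to make new ribosomes to return to growth.

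Usage can be measured only where the paralogs differ in sequence, since a read that fits both places equally well is not counted. Coding sequences of the pairs were between 78.9% (RPL22) and 99.4% (RPL1) identical in the R64 reference genome of NCBI RefSeq, and 7 pairs, RPL1, RPL2, RPL12, RPL19, RPL20 and RPL23 among them, encode identical proteins. The ends of the coding sequences of 3 pairs with large shifts toward A in germination are shown, because a sequencing read from there either tells the paralogs apart or does not. Each is a stretch of read length that ends with the stop codon, with the bases that differ between the paralogs in capitals. RPL9A (YGL147C, protein uL6, R64 chrVII:227754-227854, minus strand) and RPL9B (YNL067W, R64 chrXIV:500156-500256, plus strand) differ here at 11 positions.
RPL9A: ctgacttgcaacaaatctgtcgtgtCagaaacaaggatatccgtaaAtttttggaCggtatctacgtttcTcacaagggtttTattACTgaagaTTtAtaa
RPL9B: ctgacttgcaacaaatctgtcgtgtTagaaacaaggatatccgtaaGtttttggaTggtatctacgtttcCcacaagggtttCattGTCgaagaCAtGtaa
RPL15A (YLR029C, protein eL15, R64 chrXII:201976-202076, minus strand) and RPL15B (YMR121C, R64 chrXIII:509734-509834, minus strand) differ at 12 positions.
RPL15A: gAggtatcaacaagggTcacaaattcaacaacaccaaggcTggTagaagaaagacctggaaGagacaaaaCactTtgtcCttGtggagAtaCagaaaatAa
RPL15B: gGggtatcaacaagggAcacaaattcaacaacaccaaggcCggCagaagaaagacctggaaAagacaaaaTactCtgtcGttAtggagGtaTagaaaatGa
RPL22A (YLR061W, protein eL22, R64 chrXII:263848-263948, plus strand) and RPL22B (YFL034C-A, R64 chrVI:64243-64343, minus strand), the most divergent pair, differ at 21 positions of their alignment, 3 of them bases of RPL22B with no counterpart in RPL22A, and the first 3 bases of RPL22A lie outside the stretch of RPL22B.
RPL22A: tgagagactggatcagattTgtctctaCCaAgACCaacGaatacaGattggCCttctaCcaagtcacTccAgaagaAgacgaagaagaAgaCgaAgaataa
RPL22B: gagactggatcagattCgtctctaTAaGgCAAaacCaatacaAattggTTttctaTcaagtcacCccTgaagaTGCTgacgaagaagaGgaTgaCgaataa

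The paralogs of a pair have the same or nearly the same number of windows of read length that occur once in the reference genome, so the A share (A counts as a percent of A plus B counts) needs little correction. Dividing by those windows moved an A share by at most 0.281 percentage points. Such windows made up 39.2% of the coding sequence of RPL1A, 97.9% of RPL9A, 96.9% of RPL15A and 100% of RPL22A. The windows were taken from the reference strain, and repeats of the SK1 genome were not examined.

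Introns are present in 36 of the 52 genes, and 31 of their 38 introns begin with GTATGT. RPL22 is shown because its paralogs depart both from that start and from each other, with the first 6 of 12 intron bases in capitals (RPL22A, R64 chrXII:263206-263217, plus strand, and RPL22B, R64 chrVI:64909-64920, minus strand).
RPL22A: GTATGAtacttt
RPL22B: GTACGTtaattt
A match to the Rap1 motif was found on either strand in the 500 bases before the start codon of 11 of the 52 genes, RPL7A and RPL22B among them, and in 2.22% of 5984 promoters. A match to the Abf1 motif was found before 11 of the 52 genes, RPL15A among them, and in 22.7% of promoters. TTACCCG, a Reb1 motif, was found before 3 of the 52 genes, RPL11A and RPL15B among them, and in 10.1% of promoters.

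In spores the 52 genes together took 0.658% to 0.705% of the counted reads. A was the major paralog in 12 pairs and B in 14, and the median A share was 48.6%. RPL6 had the highest A share with 73.2% ± 0.419 (SD, n = 3 here and below), next to RPL15 with 71.0% ± 3.44 and RPL17, whose protein lines the exit tunnel, with 67.0% ± 1.77. The RPL15 libraries overlapped those of RPL6 and of RPL17, while RPL6 and RPL17 did not overlap. The lowest A shares were those of RPL9 with 7.70% ± 2.36, RPL1 (the protein of the L1 stalk) with 9.90% ± 1.53 and RPL26 with 22.4% ± 2.22, and the libraries of RPL9 and RPL1 overlapped. Per kb of coding sequence, RPL1A had 14.9 ± 3.24 and RPL9A 34.0 ± 10.3 CPM (counts scaled to a common library size by TMM), the lowest levels of the 52 genes in spores, and RPL33A had the highest with 614 ± 38.1. Per kb of windows that occur once, RPL9A had 42.0 ± 12.7 and RPL1A 45.05 ± 9.76 CPM, which differed by less than their SDs, and RPL33A was again highest with 889 ± 55.1.

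**Figure D1:**
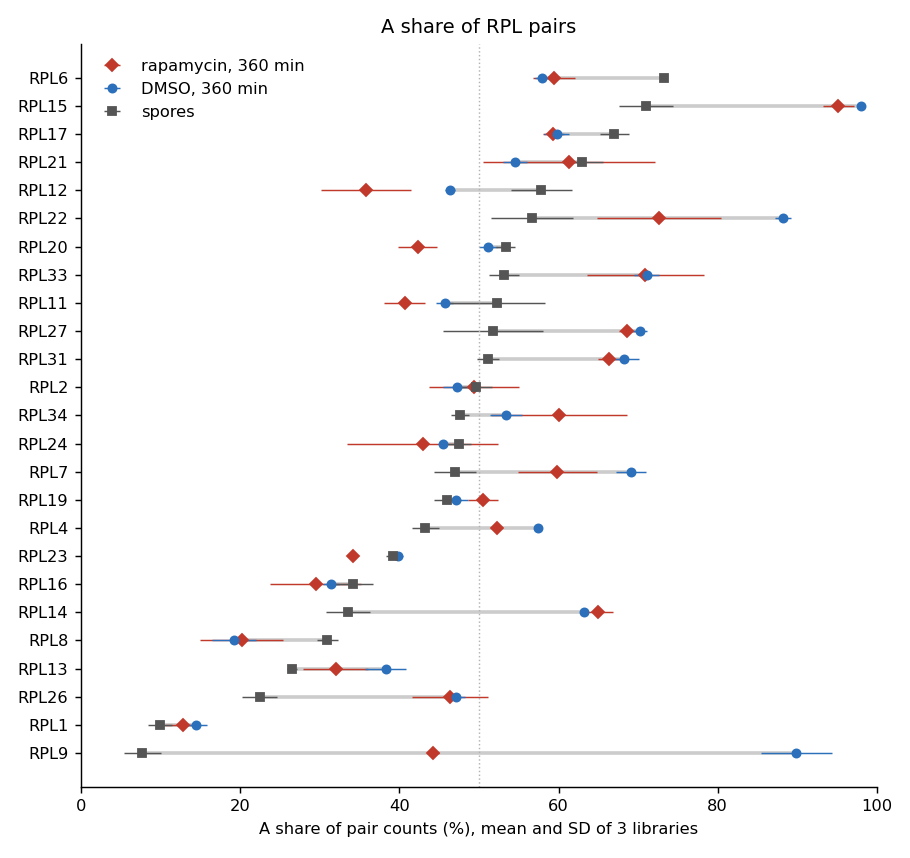
A share of the pairs (percent of A plus B counts, x axis) in rapamycin at 360 min, DMSO at 360 min and spores, as the mean of 3 libraries with bars of 1 SD. For RPL9 the means are 44.2% in rapamycin, 89.9% in DMSO and 7.70% in spores.

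Both paralogs of nearly every pair rose during germination in DMSO. A gene was called at an adjusted p under 0.05 and a change of at least 2-fold by the quasi-likelihood test of edgeR, adjusted after Benjamini and Hochberg over all genes. The members called higher than in spores numbered 0, 3, 40, 50, 51, 50 and 50 of 52 in time order, 0 to 360 min, beside 0%, 15.4%, 24.3%, 28.5%, 31%, 30.1% and 29.4% of all genes. None was called lower, as 0%, 7.37%, 20%, 26.8%, 30.8%, 29.9% and 28.6% of all genes were. The members called at 10 min were RPL9A (1.61 ± 0.17, edgeR adjusted p = 9.50e-06), RPL22B (1.30 ± 0.12, edgeR adjusted p = 2.55e-06) and RPL15A (1.02 ± 0.11, edgeR adjusted p = 7.68e-06), with values as log2 fold change ± SE here and below. When libraries were scaled by size alone, which moved the median of all genes by 0.36 on the log2 scale, 8 members were called at 10 min. Of 27 other large-subunit genes, 27 were called higher at 60 min with a median log2 change of 2.81, beside 2.77 for the members and -0.01 for all genes tested.

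The exceptions at 360 min were RPL15B and RPL9B. RPL15B had 55.3, 51.1 and 50.3 CPM in DMSO at 360 min, against 67.2, 60.5 and 61.5 CPM in spores, and it was not called at any time. Before that RPL15B had been above each spore library, with 94.8, 93.0 and 97.6 CPM at 60 min and 97.1, 99.7 and 87.4 CPM at 120 min. Its partner RPL15A had 2649, 2509 and 2464 CPM in DMSO at 360 min, against 142, 144 and 182 CPM in spores (4.01 ± 0.15, edgeR adjusted p = 3.46e-12). RPL9B had 117, 107 and 256 CPM in DMSO at 360 min, against 252, 229 and 225 CPM in spores, and the groups overlapped through DMSO library C. RPL9A had 1296, 1469 and 1426 CPM in DMSO at 360 min, against 15.5, 26.4 and 16.9 CPM in spores (6.15 ± 0.20, edgeR adjusted p = 9.85e-13), the largest change of the 52 genes at that time. RPL9B was called higher than in spores at 120 min alone (1.40 ± 0.10, edgeR adjusted p = 1.56e-08), when it had 563, 665 and 603 CPM.

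Usage was tested with the counts of both paralogs in 1 edgeR quasi-likelihood model for each comparison. The genome holds 420 paralog pairs with at least 50% protein identity. Those with both paralogs over 1 CPM in at least 3 libraries were tested, 344 to 357 pairs, and percentages of all paralog pairs refer to them. A pair was called at a Benjamini-Hochberg adjusted p under 0.05 and a change of the A:B ratio of at least 1.5-fold. In DMSO at 0 min 0 of 26 pairs were called against spores (0% of all paralog pairs), with 0 at an unadjusted p under 0.05 (10.3%) and 0 called by limma. From 10 to 360 min 9, 10, 11, 15, 16 and 16 of the 26 were called, beside 54.8%, 66.5%, 71.1%, 72.8%, 77% and 73.8% of all paralog pairs. The share called among these pairs lay below that of all paralog pairs at each time from 10 min on. That of 24 pairs of small-subunit genes did so too, with 33.3%, 62.5%, 50%, 45.8%, 54.2% and 50% called. Of the 16 pairs called at 360 min, 13 moved toward A and 3 toward B.

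RPL9 moved most. It had 91.7%, 93.2% and 84.8% A in DMSO at 360 min, against 5.80%, 10.3% and 6.96% in spores, so RPL9A was the major paralog in each DMSO library and RPL9B in each spore library (6.85 ± 0.34, edgeR adjusted p = 5.05e-09). Its mean A share in DMSO was 6.43%, 19.5%, 38.4%, 66.2%, 76.1% and 92.8% in time order, 0 to 240 min.

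RPL15 came next with 97.96%, 98.0% and 98.0% A in DMSO at 360 min, against 67.9%, 70.4% and 74.7% in spores (4.30 ± 0.14, edgeR adjusted p = 1.30e-10). RPL22 had 88.0%, 89.2% and 87.2% A in DMSO at 360 min, against 57.4%, 51.2% and 61.4% in spores (2.50 ± 0.16, edgeR adjusted p = 4.20e-08). In both pairs the paralog that led in spores led further in DMSO, and no DMSO library overlapped a spore library.

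The major paralog differed between DMSO at 360 min and spores in 7 pairs, of which RPL9, RPL14, RPL7 (protein uL30), RPL4 (in the exit tunnel) and RPL12 (at the base of the P stalk) were called. RPL14 had 63.2% ± 0.516 A in DMSO at 360 min and 33.5% ± 2.75 in spores (1.76 ± 0.12, edgeR adjusted p = 9.20e-08). RPL7 had 69.1% ± 1.90 A in DMSO at 360 min and 47.0% ± 2.64 in spores (1.34 ± 0.13, edgeR adjusted p = 1.40e-06), although at 10 min it had moved toward B (-0.82 ± 0.12, edgeR adjusted p = 0.000114). RPL4 had 57.4% ± 0.375 A in DMSO at 360 min and 43.3% ± 1.68 in spores (0.82 ± 0.11, edgeR adjusted p = 2.59e-05). The other pairs, RPL11 and RPL34, lay near 50% and were not called.

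Shifts toward B were called at 360 min for RPL6, RPL8 and RPL12. RPL6 had 58.0% ± 0.974 A in DMSO at 360 min and 73.2% ± 0.419 in spores (-0.99 ± 0.10, edgeR adjusted p = 3.76e-06). RPL8 had 19.2% ± 2.75 A in DMSO at 360 min and 30.9% ± 1.33 in spores (-0.92 ± 0.14, edgeR adjusted p = 9.38e-05). RPL12 had 46.4% ± 0.589 A in DMSO at 360 min and 57.8% ± 3.86 in spores (-0.67 ± 0.13, edgeR adjusted p = 0.000567), and without spore library A its change was -0.58, under the 1.5-fold minimum. Among the other called pairs, RPL26, RPL27, RPL33, RPL31, RPL13 and RPL1 moved toward A with log2 changes between 0.63 and 1.63. RPL1 was under the minimum without spore library C (0.49) or DMSO library A (0.55). At a 2-fold minimum 10 pairs were called at 360 min, all toward A.

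Before 60 min no member was called between rapamycin and DMSO by edgeR or by DESeq2, where 0%, 0% and 0.0172% of all genes were called higher and 0%, 0% and 0% lower. No A:B ratio of the 26 pairs was called at 0, 10 or 30 min, where 0%, 0% and 0.28% of all paralog pairs were. At an unadjusted p under 0.05 the counts were 1, 0 and 0 of 26 (0.852%, 0.562% and 4.76% of all paralog pairs), and limma called 0, 0 and 0.

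From 60 min on members were lower with rapamycin. At 60, 120, 240 and 360 min 46, 50, 14 and 3 of 52 were called lower, beside 8.82%, 15.6%, 7.68% and 5.3% of all genes, and 0 were called higher at 60 and 120 min, beside 10.4% and 21.3%. RPL9B was called higher at 240 min (1 of 52, 14.1% of all genes) and at 360 min (1 of 52, 10.4%). The 52 genes took 1.96% to 2.12% of counted reads in rapamycin at 120 min, against 6.28% to 6.98% in DMSO. Scaled by library size alone, which moved the median of all genes by 0.32, 0.50, 0.23 and 0.07 on the log2 scale at the 4 times, 20, 49, 2 and 2 members were called lower. Leaving out DMSO library B brought the members called in either direction to 8 of 52 at 240 min and 2 at 360 min, and leaving out rapamycin library B or C brought them to 13 or 9 at 360 min. Of the 27 other large-subunit genes, 27, 27, 6 and 1 were called lower at these times. Of 12 regulators of ribosomal protein genes, 1, 3, 0 and 0 were called lower and 0, 1, 3 and 2 higher.

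In bulk RNA, fewer cells of a type and less RNA per cell cannot be told apart. Transcripts of 6 genes of haploid cells summed to 341 to 367 CPM in rapamycin at 120 min, against 1757 to 2091 CPM in DMSO, and 5 genes of budding cells summed to 58.5 to 86.7 CPM in rapamycin at 360 min, against 1065 to 1375 CPM in DMSO. The same 5 genes summed to 338.5 to 369 CPM in purified spores, so their sum does not measure budding alone. The haploid genes lay the other way at 360 min, with 3565 to 5947 CPM in rapamycin and 1062 to 1716 CPM in DMSO (3 of 6 called higher). Transcripts of 10 genes known from spores summed to 174 to 284 CPM in rapamycin at 240 min, against 57.4 to 61.1 CPM in DMSO, and 7 of the 8 tested were called higher. At 60 min the sums of all 3 lists overlapped between rapamycin and DMSO. They were 153 to 163 against 155 to 164 CPM for haploid cells and 89.7 to 95.1 against 79.8 to 97.1 CPM for budding cells. For spores they were 814 to 1326 against 984 to 1410 CPM. No gene of the 3 lists was at 0 in all libraries of any of these groups. The part of these stage differences in the results was not tested. The A:B ratio within a library does not depend on how libraries are scaled.

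The A:B ratio was called in 3, 5, 5 and 4 of 26 pairs at the 4 times, beside 39.1%, 58.1%, 53.6% and 45.3% of all paralog pairs. The calls came from 6 pairs, RPL7, RPL9, RPL12, RPL15 and RPL22 among them, and each was toward B. The median absolute log2 change was 0.16, 0.32, 0.22 and 0.26 over the 26 pairs, beside 0.22, 0.35, 0.24 and 0.35 over 24 pairs of small-subunit genes and 0.59, 1.07, 0.89 and 0.66 over the other paralog pairs. Without a minimum fold, 7, 21, 15 and 7 of the 26 pairs passed the adjusted p, of which 0, 7, 2 and 0 moved toward A.

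**Figure D2:**
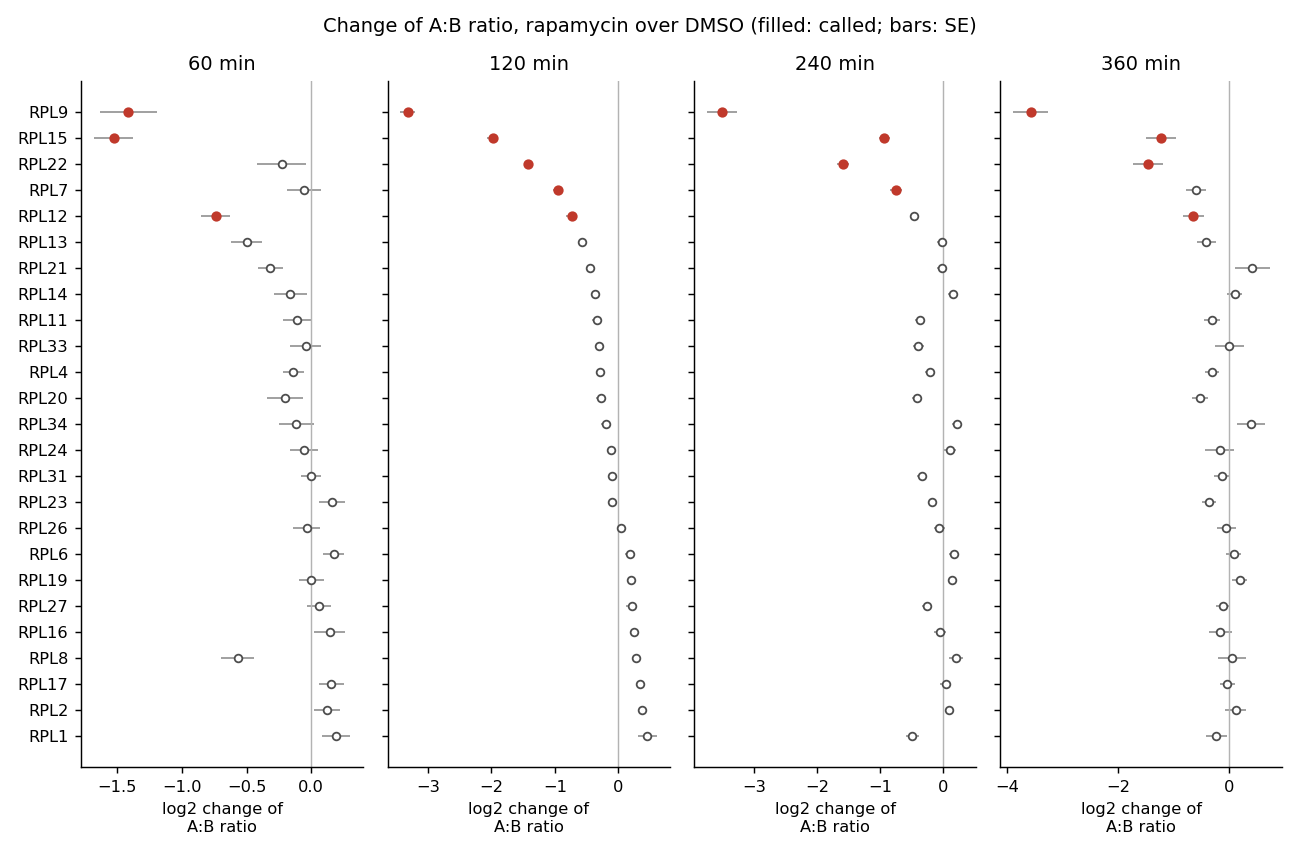
Log2 change of the A:B ratio, rapamycin over DMSO (x axis), for the pairs at 60, 120, 240 and 360 min, with bars of 1 SE and filled points for called pairs. All filled points lie left of 0, and RPL9 reaches -3.32, -3.52 and -3.58 at the last 3 times.

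RPL9 had the largest shift from 120 min on. It had 41.6%, 50.1% and 35.3% A in rapamycin at 60 min, against 65.5%, 64.7% and 68.2% in DMSO. It had 21.8%, 24.7% and 26.5% A in rapamycin at 120 min, against 78.0%, 75.5% and 74.8% in DMSO, and 43.5%, 44.1% and 44.96% A in rapamycin at 360 min, against 91.7%, 93.2% and 84.8% in DMSO. RPL9B was thus the major paralog in each rapamycin library at 120 and 360 min and RPL9A in each DMSO library. At 240 min, between these times, RPL9A led in each rapamycin library too, with 54.5%, 54.8% and 53.4% A, against 94.2%, 94.8% and 89.5% in DMSO. The log2 ratio changes were -1.42 ± 0.22, -3.32 ± 0.12, -3.52 ± 0.24 and -3.58 ± 0.32 at 60, 120, 240 and 360 min (edgeR adjusted p = 0.00349, 5.57e-07, 4.78e-07 and 6.07e-05).

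Relative to DMSO at the same time, the changes of the RPL9 paralogs came to have opposite signs. RPL9A had 108, 131 and 151 CPM in rapamycin at 120 min, against 1994, 2050.0 and 1793 CPM in DMSO (-3.91 ± 0.13, edgeR adjusted p = 2.14e-09), the deepest fall of the 52 genes at that time. RPL9B had been called lower at 60 min, with 158, 214 and 186 CPM in rapamycin at 60 min, against 317, 415 and 432 CPM in DMSO (-1.06 ± 0.16, edgeR adjusted p = 0.000712). RPL9B then had 521, 602 and 559.8 CPM in rapamycin at 240 min, against 138, 134 and 265 CPM in DMSO (1.68 ± 0.20, edgeR adjusted p = 7.18e-06). In DMSO RPL9B had come down from 563, 665 and 603 CPM at 120 min. Within rapamycin RPL9A was also higher at 240 min than at 120 min, with 623, 732 and 642 CPM. At the last time RPL9B lay above DMSO again. RPL9B had 272, 657 and 688 CPM in rapamycin at 360 min, against 117, 107 and 256 CPM in DMSO (1.73 ± 0.44, edgeR adjusted p = 0.0164). The rapamycin libraries lay above the DMSO libraries for RPL9B at both later times. The effect on RPL9B at 240 minus that at 60 min, tested with an interaction term after the values had been seen, was 2.69 ± 0.31 (edgeR adjusted p = 8.29e-06), where 27.6% of all genes differed.

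**Figure D3:**
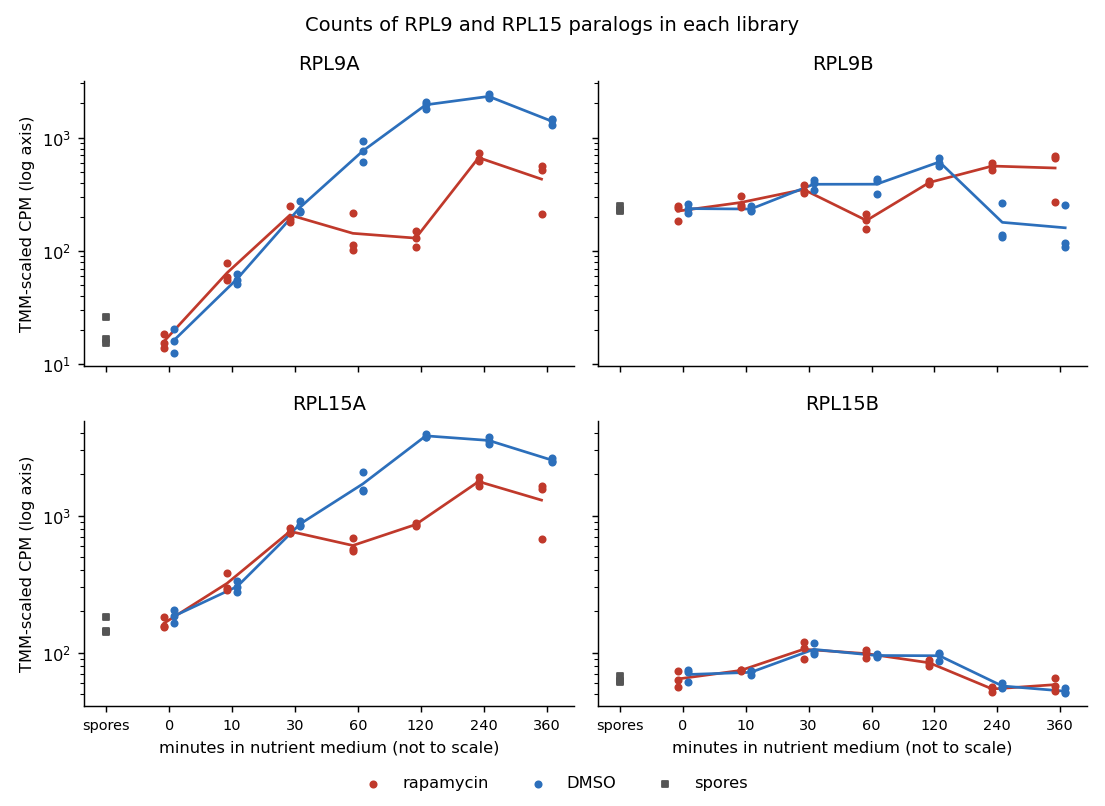
TMM-scaled CPM (log axis) of RPL9A, RPL9B, RPL15A and RPL15B in each library of rapamycin, DMSO and spores, with lines through the means and times spaced evenly. RPL9B at 240 min lies between 521 and 602 CPM in rapamycin, against 134 to 265 CPM in DMSO.

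In RPL15 the shift came with a change of 1 paralog. RPL15A had 554, 688 and 571 CPM in rapamycin at 60 min, against 1530.0, 1501 and 2078 CPM in DMSO (-1.49 ± 0.17, edgeR adjusted p = 0.000380). RPL15B had 91.1, 98.9 and 104 CPM in rapamycin at 60 min, against 94.8, 93.0 and 97.6 CPM in DMSO, with overlapping groups (0.05 ± 0.08, edgeR adjusted p = 0.653). The log2 changes of RPL15B at 120, 240 and 360 min were -0.18 ± 0.07, -0.05 ± 0.08 and 0.15 ± 0.13, none of them called. The A:B ratio of RPL15 changed by -1.53 ± 0.15, -1.98 ± 0.09, -0.93 ± 0.10 and -1.23 ± 0.27 on the log2 scale at 60, 120, 240 and 360 min (edgeR adjusted p = 0.000903, 1.32e-06, 1.08e-05 and 0.00590). RPL15A stayed the major paralog, with at least 84.5% in each rapamycin library from 60 min on.

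RPL22 was first called at 120 min. It had 72.4%, 76.5% and 67.3% A in rapamycin at 60 min, against 76.8%, 76.4% and 72.5% in DMSO (-0.23 ± 0.19, edgeR adjusted p = 0.354). It had 60.8%, 62.9% and 61.0% A in rapamycin at 120 min, against 81.7%, 80.4% and 81.0% in DMSO (-1.42 ± 0.07, edgeR adjusted p = 1.88e-06), and 74.4%, 73.8% and 73.3% A in rapamycin at 240 min, against 89.3%, 90.3% and 88.5% in DMSO (-1.58 ± 0.09, edgeR adjusted p = 1.95e-07). At 360 min the log2 change was -1.46 ± 0.27 (edgeR adjusted p = 0.00236), and no rapamycin library overlapped a DMSO library from 120 min on. RPL22A had 764, 795 and 805 CPM in rapamycin at 240 min, against 1565, 1659 and 1614 CPM in DMSO (-1.01 ± 0.08, edgeR adjusted p = 1.41e-07). RPL22B had 263, 282 and 293 CPM in rapamycin at 240 min, against 188, 177 and 209 CPM in DMSO, a difference under the 2-fold minimum (0.57 ± 0.08, edgeR adjusted p = 3.87e-05). Reads were counted over exons whether or not the intron had been removed, so spliced and unspliced RPL22 were not told apart.

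RPL12 and RPL7 were called as well, each with groups that did not overlap. RPL12 had 27.3%, 31.4% and 26.6% A in rapamycin at 60 min, against 39.0%, 40.3% and 40.2% in DMSO (-0.74 ± 0.11, edgeR adjusted p = 0.00349), and it was called again at 120 min (-0.74 ± 0.08, edgeR adjusted p = 0.000142) and 360 min (-0.64 ± 0.19, edgeR adjusted p = 0.0230). The call of RPL12 at 360 min was lost when any 1 of 5 of the 6 libraries was left out (edgeR adjusted p between 0.0666 and 0.0838), but not without rapamycin library A. RPL7 had 54.8%, 57.4% and 53.7% A in rapamycin at 120 min, against 70.4%, 70.1% and 71.0% in DMSO (-0.95 ± 0.07, edgeR adjusted p = 2.17e-05), and it was called at 240 min too (-0.74 ± 0.10, edgeR adjusted p = 7.77e-05). At 360 min RPL7 was called when rapamycin library B was left out (-0.72, edgeR adjusted p = 0.0176). RPL1 was called at 120 min, toward A, when rapamycin library B was left out (0.60, edgeR adjusted p = 0.00445).

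**Figure D4:**
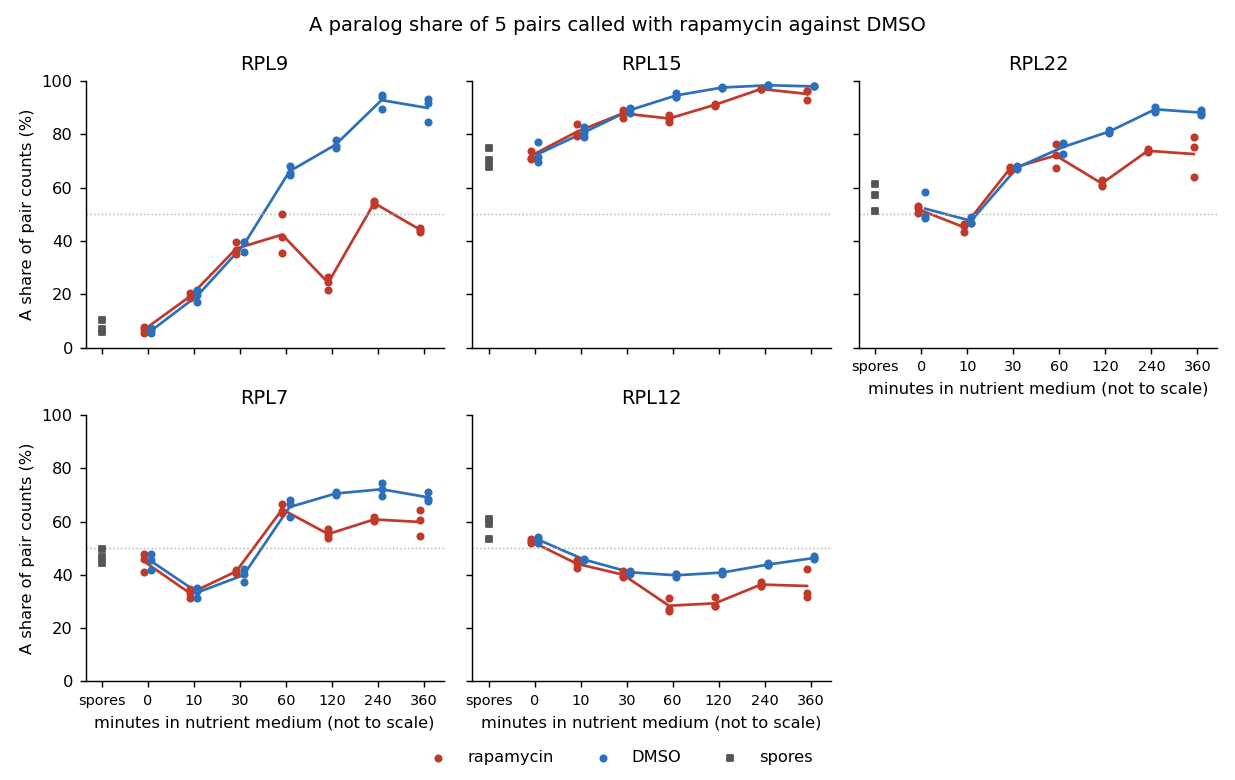
A share (percent of pair counts, y axis) in each library for 5 pairs called between rapamycin and DMSO, with spores at the left, lines through the means of 3 libraries and times spaced evenly. For RPL9 at 120 min the means are 24.3% in rapamycin and 76.1% in DMSO.

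Whether the rapamycin effect on a ratio differed between 60 and 120 min was tested with an interaction term, chosen after the values had been seen. It differed in 4 of 26 pairs (36.2% of all paralog pairs). The effect at 120 minus that at 60 min was -1.90 ± 0.27 for RPL9, -1.19 ± 0.21 for RPL22 and -0.89 ± 0.15 for RPL7 (edgeR adjusted p = 0.000340, 0.00142 and 0.000987). For RPL8 it was 0.84 ± 0.13 (edgeR adjusted p = 0.000674). RPL8 was not called at either time, with 14.4%, 16.5% and 15.8% A in rapamycin at 60 min, against 19.5%, 23.5% and 21.4% in DMSO (-0.57 ± 0.12, edgeR adjusted p = 0.00952). Leaving out DMSO library A or rapamycin library B brought RPL8 at 60 min past the 1.5-fold minimum (-0.66 and -0.62). Between 240 and 60 min the effect differed in 6 of 26 pairs (49.7% of all paralog pairs). The difference was -2.10 ± 0.37 for RPL9, -1.35 ± 0.22 for RPL22, -0.68 ± 0.17 for RPL7 and -0.67 ± 0.14 for RPL1 (edgeR adjusted p = 0.000567, 0.000283, 0.00431 and 0.00203). For RPL8 it was 0.78 ± 0.18 and for RPL15 0.60 ± 0.18 (edgeR adjusted p = 0.00285 and 0.0148), so that the RPL15 shift was smaller at 240 than at 60 min.

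Sums of both paralogs varied less from pair to pair than the single genes did. At 240 min the log2 ratio of summed CPM, rapamycin over DMSO, lay between -1.12 and -0.76 over the 26 pairs (SD 0.09), while that of the 52 genes lay between -1.79 and 1.65 (SD 0.49). RPL9A plus RPL9B had 1227 ± 97.1 CPM in rapamycin at 240 min and 2488 ± 102 CPM in DMSO, a log2 ratio of -1.02, beside -1.79 for RPL9A and 1.65 for RPL9B. At 120 min the SDs were 0.16 over sums and 0.52 over genes, and for DMSO at 360 min over spores they were 0.44 and 1.08. A sum varies less than its parts in any case, and this difference in spread was not tested.

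**Figure D5:**
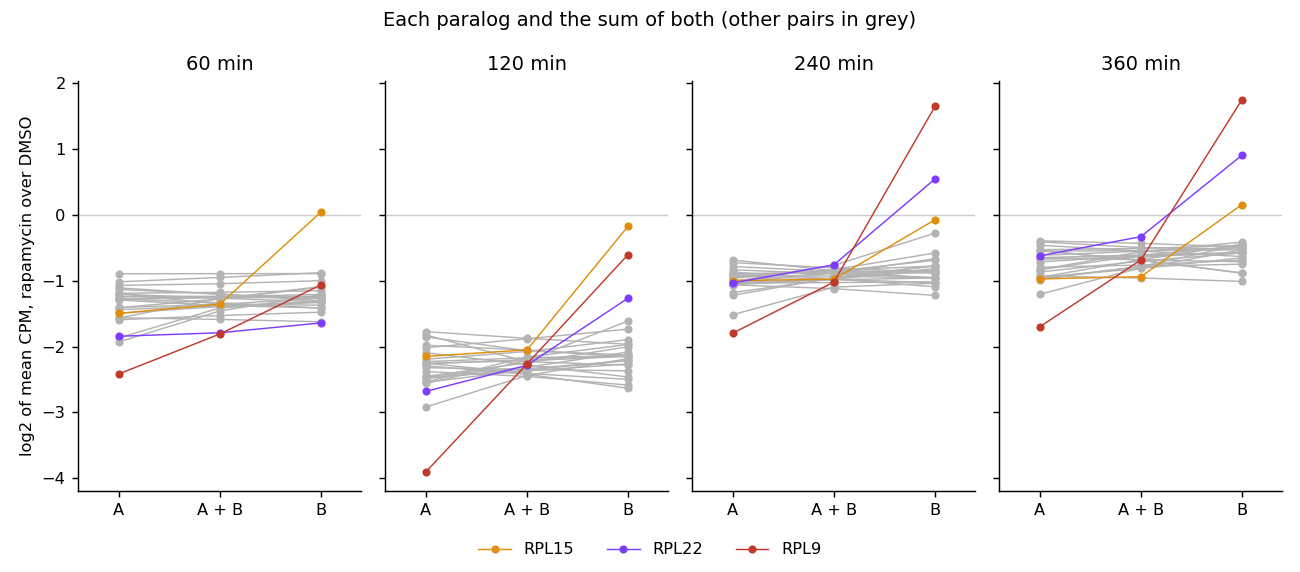
Log2 ratio of mean TMM-scaled CPM, rapamycin over DMSO (y axis), for paralog A, the sum of A and B, and paralog B of the pairs at 4 times, with 3 pairs in colour and the rest in grey. At 240 min the sums lie between -1.12 and -0.76, while RPL9B reaches 1.65.

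In all, 8 pairs were called in none of the 14 comparisons, namely RPL2, RPL16, RPL19, RPL20, RPL21, RPL23, RPL24 and RPL34. Of these, RPL21 in DMSO at 360 min against spores was called, toward B, when spore library B was left out (-0.59, edgeR adjusted p = 0.00161). RPL16 had mean A shares of 29.4% in rapamycin and 31.4% in DMSO at 360 min and 34.2% in spores. RPL20, whose paralogs encode the same protein, had 42.3% ± 2.41 A in rapamycin at 360 min and 51.1% ± 1.15 in DMSO, a change that passed the adjusted p but not the 1.5-fold minimum (-0.52 ± 0.14, edgeR adjusted p = 0.0145). Mean A shares of RPL21, RPL2 and RPL4 at 120 min lay on opposite sides of 50%, or at it, with libraries that did not overlap. RPL21 had 50% ± 0.655 A in rapamycin at 120 min and 57.8% ± 0.857 in DMSO (-0.45 ± 0.06, edgeR adjusted p = 0.000364). RPL2 had 53.5% ± 1.42 A in rapamycin at 120 min and 47.1% ± 0.715 in DMSO (0.37 ± 0.07, edgeR adjusted p = 0.00165), toward A. RPL4 had 49.5% ± 0.307 A in rapamycin at 120 min and 54.4% ± 1.10 in DMSO (-0.29 ± 0.06, edgeR adjusted p = 0.00367). These changes too passed the adjusted p but not the minimum fold. RPL19, RPL24 and RPL34 also had mean A shares on opposite sides of 50% in rapamycin and DMSO at some time. None of them passed the adjusted p there. RPL34 in DMSO at 360 min against spores passed the adjusted p but not the minimum fold (0.33 ± 0.12, edgeR adjusted p = 0.0196).

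Among single genes at 60 min, the deepest falls with rapamycin were those of RPL9A (-2.41 ± 0.30, edgeR adjusted p = 0.000441), RPL12A (-1.93 ± 0.20, edgeR adjusted p = 0.000289) and RPL8A (-1.87 ± 0.21, edgeR adjusted p = 0.000342). At the other end stood RPL15B, with a log2 change of 0.05 ± 0.08, and RPL4B with -0.88 ± 0.23, neither of them called. There were 6 members not called at 60 min, RPL7B, RPL19A and RPL19B among them.

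Library A of rapamycin at 360 min stood apart from its group, with a log2 distance of 0.573, where the next of the 45 libraries had 0.379. Without it 3 members and 4 pairs were called at 360 min, with log2 ratio changes of -3.55 for RPL9, -1.15 for RPL22, -0.90 for RPL15 and -0.84 for RPL12.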

How the data were processed

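The deposited counts are whole reads per gene, not normalized. Per the study's methods the authors trimmed single-end strand-specific poly-A reads with Trimmomatic 0.33 and aligned them with hisat2 to an SK1 genome. The gene annotation was that of Ensembl for R64, and how it matched the SK1 genome was not examined. Reads were counted with HTSeq, which leaves out reads that align to several places. Reads from stretches shared by paralogs are therefore missing from both members of a pair.

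Counts were analysed with edgeR 4.0.16 (R 4.3.3), genes over 1 CPM in at least 3 of the 6 libraries compared, TMM scaling and quasi-likelihood tests with adjustment after Benjamini and Hochberg. Paralog pairs were reciprocal best BLASTP matches (BLAST+ 2.17.0, at least 50% identity over at least 70% of both proteins) in the R64 reference, which is not the genome used for alignment. Alternatives used limma 3.58.1, with a pseudocount of 0.5, and DESeq2 1.42.0. CPM in the text were scaled by TMM over all 45 libraries. Spread is given as SD over 3 libraries.

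Both tests were tried on data simulated for rapamycin against DMSO at 60 min, at an adjusted p alone. The minimum folds of the calling rules were not applied there, so recovery under the full rules was not measured. The gene test recovered 99 of 100 genes changed 2-fold among 5683, with 7 false calls. The ratio test recovered 6 of 30 pairs changed 1.5-fold and 28 of 30 changed 2-fold among 348, with 2 false calls. Most 1.5-fold changes were thus missed in this simulation, which gave all genes the same spread. Its spread need not be that of the pairs described here. In the libraries themselves 7 of the 26 pairs passed the adjusted p alone at 60 min, among them RPL8 with a change under 1.5-fold.

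Pairs named with values were the 3 highest and 3 lowest A shares in spores, the largest called ratio changes, pairs whose major paralog differed, and every pair called where 5 or fewer were; others were chosen after their values were seen. Members, gene lists and tests were chosen with earlier results of these data known. Replicate letters did not name a shared culture; same-letter libraries deviated together (every correlation over 0.1) in 7 of the 14 comparisons for gene levels, with correlations between 0.12 and 0.72 there, and in 9 for A:B ratios, with correlations between 0.11 and 0.75. In each comparison of rapamycin with DMSO, at least 5 of 6 libraries correlated best with the same-letter library of the other group. In DMSO against spores 6 of 6 did so up to 120 min, 2 at 240 min and 4 at 360 min. The main tests use no replicate block. The values of 1 pair are not reported here, although counts and ranges over all pairs include it.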

Additional observations from a re-analysis of the deposited data

Results flagged for a closer look

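The effect of rapamycin on the A:B ratio differed between 120 and 60 min, by an interaction term in edgeR's quasi-likelihood test chosen after the values were seen, for RPL9 (log2 difference -1.90), RPL22 (-1.19), RPL7 (-0.89) and RPL8 (0.84), where 36.2% of all paralog pairs differed. Between 240 and 60 min it differed for RPL9 (-2.10), RPL22 (-1.35), RPL7 (-0.68), RPL1 (-0.67), RPL8 (0.78) and RPL15 (0.60), where 49.7% of all paralog pairs differed. The effect on the level of RPL9B differed between 240 and 60 min by 2.69 on the log2 scale, where 27.6% of all genes differed. RPL9B was lower with rapamycin at 60 min and higher at 240 min, with libraries that did not overlap at either time.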

How the results depend on the processing

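Among the pairs named by rule, no called A:B ratio change reversed under any alternative. Single pairs were checked for rapamycin from 60 min on and for DMSO at 360 min against spores. Changes that were not called, and pairs chosen after their values were seen, were not checked for reversal. Scaled by library size alone, 20 members were called with rapamycin at 60 min (46 in the main test), 3 at 240 min (15) and 8 in DMSO at 10 min against spores (3). At 360 min with rapamycin 7 members were called with DESeq2 size factors, 7 with the DESeq2 test and 9 with the replicate block (4). Without a minimum fold, 50 members were called with rapamycin at 240 min, 32 at 360 min and 29 in DMSO at 10 min, and the pairs called numbered 7, 21, 15 and 7 with rapamycin at 60, 120, 240 and 360 min and 15, 16 and 19 in DMSO at 10, 30 and 60 min. At a 2-fold minimum 3 and 2 pairs were called with rapamycin at 120 and 240 min, and 1, 4, 7 and 10 in DMSO at 10, 30, 120 and 360 min. The cause of these differences was not tested. Leaving out each library in turn gave 42 to 49 members with rapamycin at 60 min, 8 to 21 at 240 min, 2 to 13 at 360 min and 2 to 3 in DMSO at 10 min, and 3 to 5 pairs with rapamycin at 60 min and 3 to 4 at 360 min (8 at 240 min and 2 at 360 min without DMSO library B, 9 and 13 at 360 min without rapamycin library C or B, and 5 pairs at 60 min without rapamycin library B). The block on replicate letters changed the call of no named pair and no other count by over 1.5 times. Limma, no filter on low counts and a limit of 80% identity changed no named pair's call.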
